A study of Mus musculus with 8 samples.

Results

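The 10 genes that kidney research reads as markers of tubular injury and of the epithelial cytoskeleton were followed array by array in whole mouse kidneys. These are Havcr1, Lcn2, Vcam1, Clu, Sox9, Vim, Krt8, Krt18, Krt19 and Krt20, taken as a named list of 10 genes of the 19936 measured on their own. Each had 1 probe set naming it alone, and that probe set was used. Total RNA was read on 8 Affymetrix arrays, 1 per mouse, and each value is the log2 of a probe set's deposited signal, so a step of 1 is a doubling on that scale.

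The arrays labelled mutant came from 4 mice with floxed Vhl alleles and the transgenes Pax8-rtTA and LC-1, and the arrays labelled control from 4 littermates whose own alleles the labels do not give. Pax8-rtTA switches on the LC-1 Cre transgene under doxycycline in cells where the Pax8 promoter is active, which in the kidney is the tubular epithelium, so endothelial, stromal and immune cells keep Vhl in this design. All 8 mice were female and of a mixed C57BL/6 - SV127 background. From the age of 3 weeks they drank doxycycline (0.2 mg/ml in 5% sucrose) for 2 weeks, returned to plain water for 1 week and gave their kidneys at 6 weeks.

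In a healthy kidney, Havcr1 (kidney injury molecule 1) is scarcely made. Injured proximal tubule cells make it and display it on their surface, where it binds dying cells. Lcn2 (neutrophil gelatinase-associated lipocalin, which captures bacterial iron carriers) is released mainly by distal tubule and collecting duct cells under stress. Sox9, Vcam1, Vim, the simple keratins and Clu are switched on in tubule cells that lose their mature form, repair themselves or fail to do so. None of these genes belongs to injured tubules alone: Vim and Vcam1 are also made by endothelial, stromal and immune cells, and Krt19 and Krt20 by duct and urinary tract lining.

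The group labels did not match the targeted gene. Vhl read 8.25, 8.32, 8.46 and 8.33 on the arrays labelled mutant and 8.01, 7.99, 7.96 and 8.22 on those labelled control, a log2 difference of 0.29 (limma adjusted p = 0.0387, or 0.0558 with the replicate number as a block). Egln3, a gene that hypoxia-inducible factor switches on when the VHL protein is missing, was lower by 7.81-fold on the arrays labelled mutant. Car9, Vegfa and Slc2a1, also targets of that factor, were lower there by 7.35-fold, 1.79-fold and 1.66-fold. Their limma adjusted p-values were 0.000523, 1.3e-05 and 0.00032. All of these targets were apart between the groups and also passed with the replicate block. Directions are therefore given between labels and not as effects of Vhl loss. Array medians lay between 7.55 and 7.58 and lower quartiles between 6.21 and 6.28. The proximal tubule marker list averaged 12.07 to 12.36 on the arrays labelled mutant and 11.92 to 12.11 on those labelled control. Nothing in the labels names a batch. The number of arrays limits precision, with a median standard error of 0.0718 for a log2 difference over all genes.

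Across the 10 markers the 2 labelled groups showed no common direction. Clu was higher in the arrays labelled mutant, Krt19 and Vim were lower, and the other 7 did not pass the test (limma over all 19936 genes, Benjamini-Hochberg adjusted p under 0.05). Of all genes, 7.23% passed, with 2.59% higher and 4.64% lower in the labelled mutant group. The median log2 difference of the 10 markers was -0.06 against 0.03 for all genes. The same 3 markers, Clu, Krt19 and Vim, were the ones whose groups did not overlap, which 14.8% of all genes also showed (6.57% higher and 8.2% lower).

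**Figure D1:**
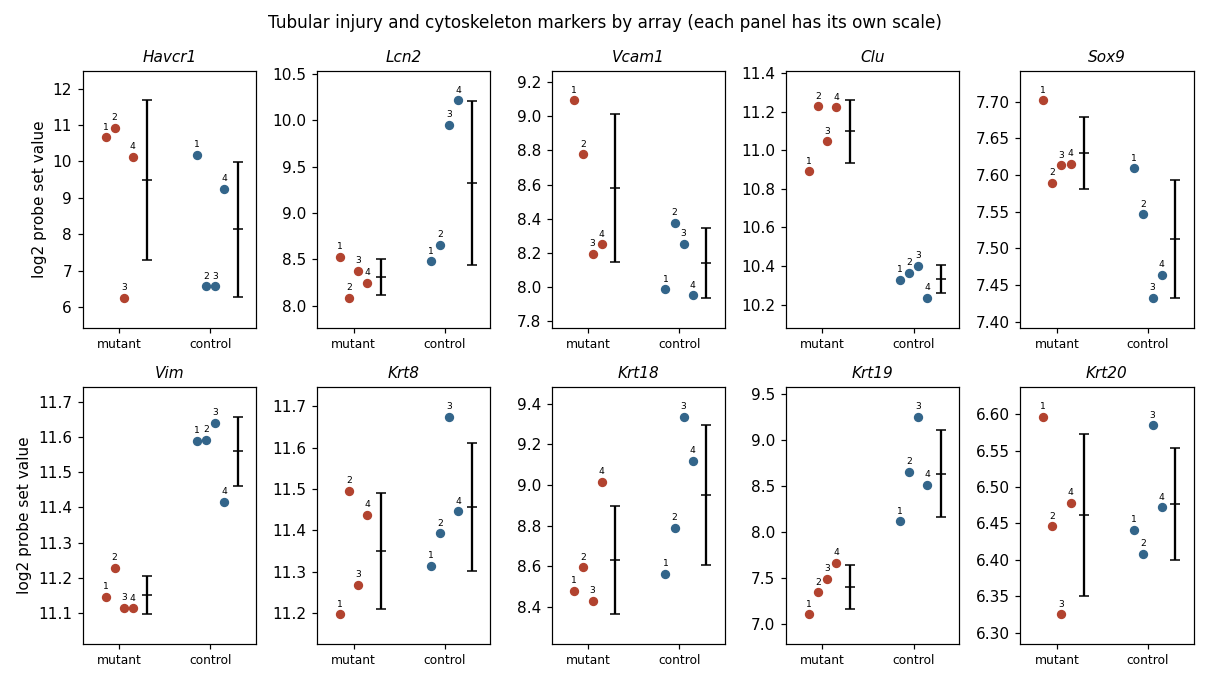
Log2 probe set value (vertical axis, own scale in each panel) of each marker on every array, with arrays labelled mutant left and arrays labelled control right. Points carry the replicate number, and bars give the mean and SD of 4 arrays. The groups are apart for Clu, Vim and Krt19, while Havcr1 reads between 6.25 and 10.92 within 1 group.

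**Figure D2:**
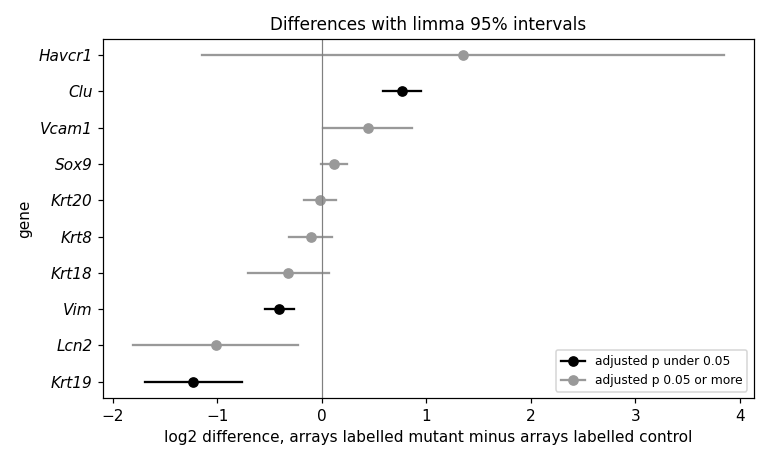
Log2 difference of each marker (horizontal axis, arrays labelled mutant minus arrays labelled control) with its limma 95% interval. Black marks the 3 markers that passed, Clu at 0.77, Vim at -0.41 and Krt19 at -1.23, and the interval of Havcr1 runs from -1.14 to 3.85.

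Havcr1, the classic proximal tubule injury marker, varied from mouse to mouse more than any other gene. On the arrays labelled mutant it read 10.66, 10.92, 6.25 and 10.13, and on the arrays labelled control 10.18, 6.56, 6.56 and 9.25. On 5 arrays, 3 labelled mutant and 2 labelled control, it was 9.25 or more, on the other 3 it was 6.56 or less, and no array lay between. The lowest 3 values lie just above or within the range of the arrays' lower quartiles. Within the labelled mutant group the range was 4.67 on the log2 scale, or 25.5-fold, and within the labelled control group 3.62, or 12.3-fold. The within-group SD of 2.03 ranked 1 among all 19936 genes, whose median was 0.104.

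The groups overlapped, and the mean of Havcr1 did not differ beyond this spread. It was 9.49 ± 2.19 with the mutant label and 8.14 ± 1.86 with the control label (SD, n = 4 each), a log2 difference of 1.35 with a 95% interval of -1.14 to 3.85 (limma adjusted p = 0.516). An exact two-sided permutation of the 8 values gave p = 0.314, where 0.0286 is the smallest that 4 against 4 arrays allow. The difference was 2.43 without array 3 of the labelled mutant group, 2.03 without array 1 of the labelled control group, 0.83 without labelled control array 2 or 3 and 0.88 without labelled mutant array 2, with no call in any of these. It was 0.05 without labelled mutant arrays 1 and 2 and 2.65 without labelled mutant arrays 3 and 4, again with no call.

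Lcn2, the lipocalin, was high on partly different arrays from Havcr1. It read 8.53, 8.08, 8.37 and 8.25 on the arrays labelled mutant and 8.48, 8.66, 9.95 and 10.22 on those labelled control. Labelled control arrays 3 and 4 stood above the other 6 arrays, and of the remaining labelled control arrays 1 lay inside and 1 just above the labelled mutant range. It averaged 8.31 ± 0.190 with the mutant label and 9.33 ± 0.885 with the control label (SD, n = 4 each). The log2 difference of -1.02 (95% interval -1.81 to -0.22) did not pass over all genes (limma adjusted p = 0.128). With single arrays left out it ran from -1.30 to -0.72 and did not pass in any case (limma adjusted p from 0.0528 to 0.302).

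Set side by side, these 2 markers did not single out the same mice. Labelled control array 3 had the second highest Lcn2 value, 9.95, and a Havcr1 value of 6.56. Labelled mutant array 2 had the highest Havcr1 value, 10.92, and the lowest Lcn2 value, 8.08. Labelled control array 4 was high in both, at 9.25 for Havcr1 and 10.22 for Lcn2. Because Havcr1 fell into 2 separate levels, one of 5 arrays and one of 3, no correlation of the other 9 markers with it is given, and whether they move with it was not tested.

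**Figure D3:**
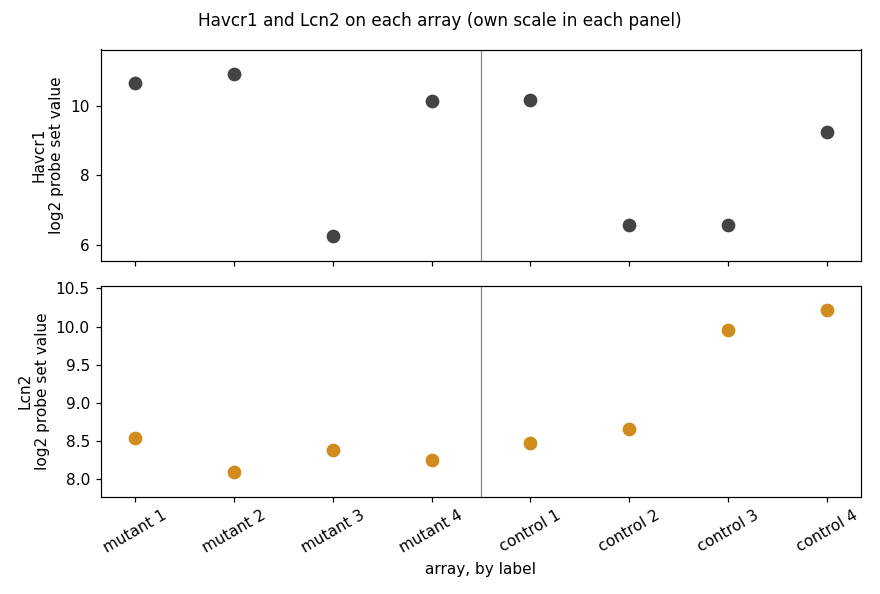
Log2 probe set values of Havcr1 (upper panel) and Lcn2 (lower panel) on each of the 8 arrays, in panels with separate scales. Havcr1 is at 6.56 or below on labelled mutant array 3 and labelled control arrays 2 and 3, while Lcn2 is high on labelled control arrays 3 and 4, at 9.95 and 10.22.

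None of the other 8 markers split the arrays as Havcr1 did. Labelled mutant array 3, at 6.25 for Havcr1, had the lowest Krt18, Krt20 and Vcam1 values of its group (8.43, 6.33 and 8.20). It had the second highest Krt19 value of that group, 7.49. On labelled control arrays 2 and 3, both at 6.56 for Havcr1, the Vcam1 values of 8.37 and 8.25 were the 2 highest of that group. Krt19 was likewise highest there, at 8.66 and 9.25, against 8.12 and 8.51 on the other 2 arrays labelled control. Krt8, Krt18 and Sox9 lay on opposite sides of their labelled control means on those 2 arrays, with Krt18 at 8.79 and 9.34 and Sox9 at 7.55 and 7.43.

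Among genes past set limits of spread and level, those whose mouse-to-mouse pattern was most like that of Havcr1 stood in none of the injury lists. Likeness was measured as Pearson's r between deviations from the labelled-group means over the 8 arrays. It was ranked over 1003 genes with a within-group SD of at least 0.2 and a mean of at least 7, after 51 of the 1054 past these limits were left out because their names were only clone or predicted-gene names. The highest were Pde4c, a phosphodiesterase that breaks down cyclic AMP (r = 0.944), Cabp4, a calcium-binding protein of photoreceptors (0.897), the olfactory receptor gene Olfr1347 (0.881), the proline-rich protein gene Prp2 (0.857) and Pate11 (0.850). These values are a ranking and carry no test, since the best of 1003 is high by selection and the 2 levels of Havcr1 dominate r. Krt8, Krt20, Clu, Vim and Sox9 (within-group SD 0.148, 0.0956, 0.125, 0.0796 and 0.0664) lay below the SD limit and were not ranked. Lcn2, Krt18, Krt19 and Vcam1 (within-group SD 0.640, 0.307, 0.372 and 0.338) passed both limits and were ranked. None of them was among the 5 highest. Other genes of the injury lists below either limit could not appear either. Pde4c read 10.40, 10.38, 10.08 and 10.45 on the arrays labelled mutant and 10.12, 9.67, 9.66 and 10.04 on those labelled control. Within its groups it was lowest on the same 3 arrays, over a much smaller range. Timd2, a gene of the same family as Havcr1, lies beside it on chromosome 11 with 0 protein-coding genes between. Timd2 read 7.01, 6.60, 6.01 and 7.25 on the arrays labelled mutant and 6.63, 6.13, 6.39 and 6.27 on those labelled control. It was chosen after its values were seen. Its lowest value in each group was also on an array with low Havcr1. Labelled control array 3, likewise low in Havcr1, had the second highest Timd2 value of its group, 6.39. Timd4 and Havcr2, of the same family, were lowest in the labelled mutant group on array 4, at 6.62 and 6.14, where Havcr1 was 10.13. In the labelled control group Timd4 was lowest on array 2, at 6.62, and Havcr2 on array 1, at 6.42.

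Clusterin was the one marker higher in the arrays labelled mutant. Clu, which encodes a secreted chaperone that binds misfolded proteins, read 10.89, 11.23, 11.05 and 11.22 there and 10.33, 10.37, 10.40 and 10.23 on the arrays labelled control. Every array labelled mutant lay above every array labelled control. It averaged 11.10 ± 0.161 with the mutant label and 10.33 ± 0.0715 with the control label (SD, n = 4 each), 1.70-fold higher (log2 difference 0.77 ± 0.0812 SE, limma adjusted p = 0.000628). The call held with each array left out, with log2 differences from 0.72 to 0.83.

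Sox9, a transcription factor that returns in tubule cells under repair, hardly moved. It read 7.70, 7.59, 7.61 and 7.62 on the arrays labelled mutant and 7.61, 7.55, 7.43 and 7.46 on the arrays labelled control. The groups overlapped by 1 array, labelled control array 1. The log2 difference was 0.12 (95% interval -0.01 to 0.24, limma adjusted p = 0.265). Its within-group SD, 0.0664, ranked 16248 of 19936 genes.

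Vcam1, an adhesion molecule for leukocytes that marks endothelium under inflammation and proximal tubule cells in failed repair, was split within the labelled mutant group. Labelled mutant arrays 1 and 2 read 9.09 and 8.78, and labelled mutant arrays 3 and 4 read 8.20 and 8.25. The arrays labelled control read 7.99, 8.37, 8.25 and 7.95. The first 2 arrays labelled mutant lay above all others, and the remaining 2 lay inside the labelled control range. The log2 difference of 0.44 did not pass (limma adjusted p = 0.217). It was 0.08 without labelled mutant arrays 1 and 2 (limma adjusted p = 0.825) and 0.79 without labelled mutant arrays 3 and 4, where it did pass (limma adjusted p = 0.0181). The list of macrophage and leukocyte markers moved with it. The list's mean was 7.89 and 7.80 on labelled mutant arrays 1 and 2, 7.37 and 7.39 on labelled mutant arrays 3 and 4, and 7.6 to 7.79 on the arrays labelled control. Of its 15 measured genes 0 passed the limma test between the labelled groups, against 7.23% of all genes. In that list 2 genes had an unadjusted p under 0.05. With the replicate block 2 passed, the integrin gene Itgam (log2 difference -0.42, limma adjusted p = 0.0148, against 0.0530 without the block) and the macrophage gene Cd68 (limma adjusted p = 0.0334, against 0.143 without the block). Itgam passed under 8 of its 16 alternatives. The part of these cells in the Vcam1 values was not tested.

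Vimentin was lower in the arrays labelled mutant by a small but regular step. Vim, the intermediate filament of mesenchymal cells and of tubule cells that have lost their mature form, read 11.15, 11.23, 11.11 and 11.11 there and 11.59, 11.59, 11.64 and 11.42 on the arrays labelled control. The groups were apart. The log2 difference was -0.41 ± 0.0617 SE, 1.33-fold lower (limma adjusted p = 0.00381), and it ran from -0.46 to -0.38 with single arrays left out, passing each time. Markers of cells outside the tubule fell beside it. The endothelial list averaged 9.58 to 9.66 on the arrays labelled mutant and 10.10 to 10.23 on the arrays labelled control. Of its 14 measured genes 12 were lower, where 4.64% of all genes were. Cdh5, the endothelial cadherin, was 1.79-fold lower (limma adjusted p = 0.000272) and Kdr, the main receptor for vascular endothelial growth factor, 1.86-fold lower (limma adjusted p = 0.00159). The list of stroma and perivascular cells averaged 9.08 to 9.27 on the arrays labelled mutant and 9.43 to 9.60 on the arrays labelled control, with 5 of 12 genes lower and 0 higher. Lum, a matrix proteoglycan gene, was 2.06-fold lower and the smooth muscle actin gene Acta2 1.62-fold lower, and Tagln, Dcn and Pdgfrb were the other 3. Within the labelled control group, array 3 was highest and array 4 lowest for both Vim and the stromal list. Within the labelled mutant group Vim was highest on array 2, and the stromal list was highest on array 3 and lowest on array 1. In whole-kidney RNA, fewer cells of a type and less RNA per cell cannot be told apart, and the part of these cells in the Vim difference was not tested.

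**Figure D4:**
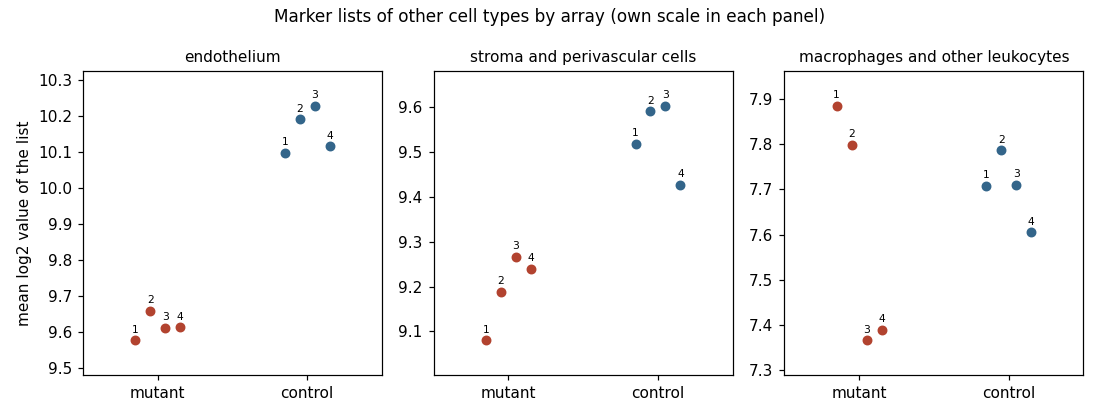
Mean log2 value of the marker lists of endothelium, stroma and perivascular cells, and macrophages and other leukocytes (vertical axes, own scale in each panel) on each array, with replicate numbers. The first 2 lists are lower on all 4 arrays labelled mutant, while the leukocyte list is split between labelled mutant arrays 1 and 2 (7.89 and 7.80) and labelled mutant arrays 3 and 4 (7.37 and 7.39).

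Among the keratins Krt19 was lower in the arrays labelled mutant, and Krt8, Krt18 and Krt20 did not pass. Krt19, a type I keratin of ducts and of the urinary tract lining that also appears in injured tubules, read 7.11, 7.35, 7.49 and 7.67 on the arrays labelled mutant and 8.12, 8.66, 9.25 and 8.51 on the arrays labelled control. No array labelled mutant reached the labelled control range. It averaged 7.40 ± 0.236 with the mutant label and 8.63 ± 0.470 with the control label (SD, n = 4 each), 2.34-fold lower (log2 difference -1.23 ± 0.209 SE, limma adjusted p = 0.00670). With single arrays left out it ran from -1.40 to -1.02 and passed each time. Without labelled mutant arrays 1 and 2 together it was -1.05 and no longer passed (limma adjusted p = 0.0623).

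The marker lists of the collecting duct and of the urothelium overlapped between the labelled groups. In the collecting duct list 2 of 13 genes were higher and 0 lower, where 2.59% and 4.64% of all genes were. The higher ones were the water channel gene Aqp3 (1.36-fold, limma adjusted p = 0.0361) and the steroid enzyme gene Hsd11b2 (1.24-fold, limma adjusted p = 0.0156). The mean of the list ran from 9.95 to 10.13 on the arrays labelled mutant and from 9.85 to 9.99 on the arrays labelled control. Aqp3 lost its call without labelled mutant array 1, 2 or 4 or labelled control array 2 or 3, and Hsd11b2 without labelled control array 3, and both without labelled mutant arrays 1 and 2 together. In the list of urothelium and papillary surface 0 of 11 genes passed in limma, 2 had an unadjusted p under 0.05, and its mean ran from 8.03 to 8.35 on the arrays labelled mutant and from 7.82 to 8.21 on the arrays labelled control. Upk1b, a plaque protein gene of the urinary lining and the member that differed most, had a log2 difference of 0.27 (limma adjusted p = 0.536). The part of duct and lining cells in the Krt19 difference was not tested.

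Krt8 and Krt18 encode the type II and type I keratins that pair in simple epithelia and are made more strongly in stressed tubules. Krt8 read 11.20, 11.50, 11.27 and 11.44 on the arrays labelled mutant and 11.31, 11.39, 11.67 and 11.45 on those labelled control. Krt18 read 8.48, 8.60, 8.43 and 9.02 on the arrays labelled mutant and 8.56, 8.79, 9.34 and 9.12 on the arrays labelled control. The groups overlapped for both. Log2 differences were -0.11 for Krt8 (95% interval -0.31 to 0.10, limma adjusted p = 0.533) and -0.32 for Krt18 (95% interval -0.71 to 0.07, limma adjusted p = 0.323).

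Krt20, a keratin of umbrella cells in the urinary tract that severely injured tubules also make, stayed near the low end of the scale. It read 6.60, 6.45, 6.33 and 6.48 on the arrays labelled mutant and 6.44, 6.41, 6.58 and 6.47 on the arrays labelled control. All 8 values lay just above the arrays' lower quartiles. The log2 difference was -0.02 (95% interval -0.17 to 0.14, limma adjusted p = 0.918), and its sign turned to 0.03 without labelled mutant array 3 and 0.02 without labelled control array 3.

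From mouse to mouse within a labelled group, Krt8, Krt18 and Krt19 tended to move together and Sox9 against them. No pair passed the adjustment for 36 pairs. Deviations from the labelled-group means were correlated over 8 arrays for the 36 pairs of the 9 markers other than Havcr1, with an exact permutation within the groups (576 arrangements, two-sided). For Krt8 and Krt18, Pearson's r was 0.79 (permutation p = 0.0330, adjusted p = 0.375) and Spearman's rho 0.74 (permutation p = 0.0729). Without the 2 arrays farthest from the Krt8 median r was 0.93, and with the replicate number also removed 0.86.

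Krt19 stood close to both. Pearson's r was 0.79 between Krt8 and Krt19 (permutation p = 0.0451, adjusted p = 0.375, rho 0.69 with permutation p = 0.0799) and 0.80 between Krt18 and Krt19 (permutation p = 0.0417, adjusted p = 0.375, rho 0.57 with permutation p = 0.203). Without the 2 farthest arrays these were 0.83 and 0.47, and with the replicate number also removed 0.67 and 0.92. All 3 keratins were highest on array 3 and lowest on array 1 of the labelled control group. In the labelled mutant group Krt18 and Krt19 were highest on array 4, and Krt8 on array 2.

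Sox9 ran the other way within a narrow range. Pearson's r between Sox9 and Krt8 was -0.84 (permutation p = 0.0104, adjusted p = 0.375) and rho -0.81 (permutation p = 0.0139, adjusted p = 0.5). Without the 2 arrays farthest from the Krt8 median r was -0.74, and with the replicate number also removed -0.77. With Krt18 and Krt19 its r was -0.77 (permutation p = 0.0729) and -0.79 (permutation p = 0.0556), falling in size for Krt19 to -0.42 without the 2 farthest arrays and to -0.27 with the replicate number also removed. Krt8 and Clu also stood close, with r 0.72 (permutation p = 0.0677) and rho 0.76 (permutation p = 0.0781). The keratin Krt20 followed the other keratins less, with r 0.27 for Krt8, 0.45 for Krt18 (rho 0.67) and 0.18 for Krt19. Of the 36 pairs, 21 had a positive r and 15 a negative one. An unadjusted permutation p under 0.05 was found for 4 pairs with Pearson's r and for 1 with Spearman's rho. The lowest adjusted p was 0.375 for Pearson's r and 0.5 for Spearman's rho.

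**Figure D5:**
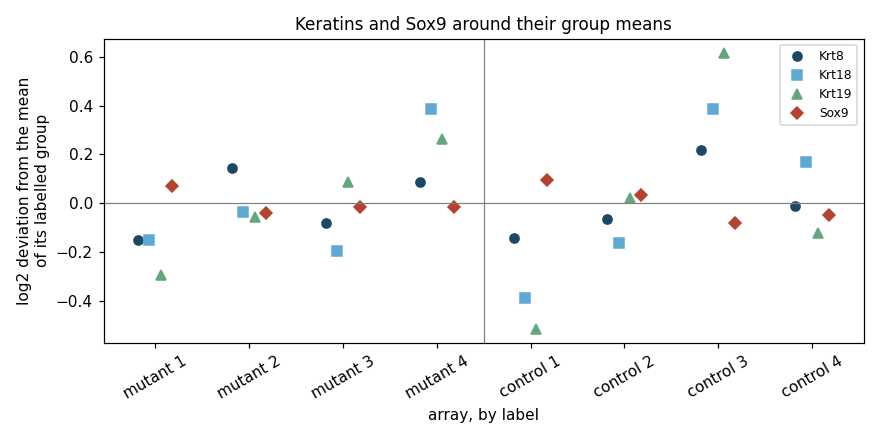
Deviation of Krt8, Krt18, Krt19 and Sox9 from the mean of their labelled group (vertical axis, log2 scale) on each array. On labelled control array 3 the 3 keratins lie 0.22 to 0.62 above their means and Sox9 lies 0.08 below its own.

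The promoter windows of 4 markers are printed for the following reasons. Krt8 and Krt18 encode partner keratins, lie on chromosome 15 with 0 protein-coding genes between them and differ in the exact letters marked below. Havcr1 and Lcn2 were high on partly different arrays. Each runs 5′ to 3′ from 250 bases before to 50 bases after a transcript start in RefSeq, build GRCm38.p6, which held windows for 6 of the 10 markers. Capitals mark, on either strand, TATAAA (the TATA box, in 13.6% of 32851 windows of this length), a loose NF-kappaB motif (3 G, 2 unspecified bases, T, 2 unspecified bases and 2 C, in 18.4%) and GGGCGG (the SP1 box, in 35.7%).
Krt8, chr15:102004293-102004592 (- strand): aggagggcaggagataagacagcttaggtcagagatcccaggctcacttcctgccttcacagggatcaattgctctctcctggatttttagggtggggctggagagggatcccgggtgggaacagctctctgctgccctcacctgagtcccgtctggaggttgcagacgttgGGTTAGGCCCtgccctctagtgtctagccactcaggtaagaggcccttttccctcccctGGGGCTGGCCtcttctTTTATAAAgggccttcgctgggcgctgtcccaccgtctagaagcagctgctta
Krt18, chr15:102027966-102028265 (+ strand): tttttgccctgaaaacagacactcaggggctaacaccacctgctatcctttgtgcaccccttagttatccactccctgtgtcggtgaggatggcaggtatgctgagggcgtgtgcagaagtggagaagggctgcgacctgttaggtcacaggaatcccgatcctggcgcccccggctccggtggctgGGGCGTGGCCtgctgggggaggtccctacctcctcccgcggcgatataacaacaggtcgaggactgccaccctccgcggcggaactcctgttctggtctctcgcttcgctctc
Lcn2, chr2:32387690-32387989 (- strand): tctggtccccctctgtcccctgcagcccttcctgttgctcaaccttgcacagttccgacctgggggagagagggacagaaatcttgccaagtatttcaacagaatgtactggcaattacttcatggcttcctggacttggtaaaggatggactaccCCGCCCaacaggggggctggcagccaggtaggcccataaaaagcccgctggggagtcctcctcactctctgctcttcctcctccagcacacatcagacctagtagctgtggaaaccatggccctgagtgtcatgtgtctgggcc
Havcr1, chr11:46739973-46740272 (+ strand): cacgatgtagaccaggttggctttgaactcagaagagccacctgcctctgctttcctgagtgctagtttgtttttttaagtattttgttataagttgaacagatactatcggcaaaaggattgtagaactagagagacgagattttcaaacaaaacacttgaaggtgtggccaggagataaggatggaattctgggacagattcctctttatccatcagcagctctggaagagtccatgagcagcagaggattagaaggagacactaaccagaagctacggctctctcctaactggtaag

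The Krt8 window held TATAAA on both strands in overlapping letters and the NF-kappaB motif in 2 places, and the Krt18 window held the NF-kappaB motif in 1 place and no TATAAA. The Krt8 matches to TATAAA began at positions -3 and -1 from the annotated start and so lay across it. In the Vim and Krt20 windows, not printed, TATAAA began at -32 and -29. The Lcn2 window held 1 GGGCGG, read on the opposite strand. The Havcr1 window shown, the first of 3 in the table, held none of these letters. The hypoxia response core, searched as ACGTG (19.6% of windows) and GCGTG (32.4%) on both strands, stood in 2 places in the Krt18 window as GCGTG, 1 of them inside the letters of the NF-kappaB motif. ACGTG stood once in each of the other 2 Havcr1 windows. Runs that only come close to these letters were not searched for, so a missing match does not show that a motif is absent. A match is a run of letters and not evidence of binding.

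Other genes of kidney injury and failed repair were mostly not called, and those called were lower. Of 32 listed genes 29 were measured on their own. In the arrays labelled mutant 0 were higher and 5 were lower (6 passed with the replicate block), where 4.64% of all genes were lower. The median log2 difference was -0.06. Lower were Hmox1, the haem-degrading enzyme gene, the annexin genes Anxa1, Anxa2 and Anxa3, and Ccn2, a matrix growth factor gene. Hmox1 read 8.56, 8.35, 8.63 and 9.25 on the arrays labelled mutant and 9.51, 9.45, 9.96 and 10.76 on the arrays labelled control, 2.32-fold lower (limma adjusted p = 0.0293). Its call was lost without labelled mutant array 1, 2 or 3 or labelled control array 3 (limma adjusted p from 0.0643 to 0.0907), without labelled mutant arrays 1 and 2 together (0.188) and with a trend and robust fit (0.0822). Anxa2, a membrane-linking annexin gene, read 8.99, 8.95, 9.22 and 9.29 on the arrays labelled mutant and 9.51, 9.69, 9.82 and 9.68 on the arrays labelled control, 1.47-fold lower (limma adjusted p = 0.00597).

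The remaining keratin and intermediate filament genes were mostly flat. Of 21 measured, 0 were higher and 1 was lower, where 2.59% and 4.64% of all genes were. The median log2 difference of the list was 0.04. The one was Nes (nestin, a filament of podocytes and of endothelial and other mesenchymal cells), at 8.14, 7.90, 7.88 and 7.84 on the arrays labelled mutant and 8.41, 8.25, 8.31 and 8.28 on the arrays labelled control (1.29-fold lower, limma adjusted p = 0.0139, or 0.0720 without labelled mutant arrays 3 and 4 together). Of 21 measured genes for actin, tubulin and membrane linkers, 0 were higher and 5 were lower (6 passed with the replicate block), with a median of -0.08. The tubulin genes Tuba1a and Tubb6 were 1.40-fold and 1.33-fold lower (limma adjusted p = 0.00517 and 0.00358), and the crosslinker gene Flna and the tropomyosin genes Tpm2 and Tpm4 were the other 3.

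Of 12 measured immediate early and stress genes, not including Gdf15, Hspa1b and Areg, 1 was lower, 0 were higher, and the median was -0.04. Of all genes 4.64% were lower and 2.59% higher. With the replicate block 2 of the 12 passed, Myc and Hspb1. Hspb1, a heat shock protein gene, had a log2 difference of -0.56 (limma adjusted p = 0.00595, against 0.130 without the block). Myc, a transcription factor that drives growth, read 8.64, 8.18, 8.48 and 8.74 on the arrays labelled mutant and 10.43, 10.60, 10.36 and 11.03 on the arrays labelled control. Every array labelled mutant lay below every array labelled control, 4.27-fold lower on average (log2 difference -2.10 ± 0.156 SE, limma adjusted p = 7.05e-05). Fos, Jun, Egr1 and Atf3, genes that respond within minutes to handling and stress, had log2 differences between -0.01 and 0.07 and did not pass. The remaining tubule lists were higher or mixed. In the loop of Henle and distal tubule list 3 of 8 genes were higher and 0 lower (5 passed with the replicate block), namely the claudin gene Cldn16 (1.42-fold, limma adjusted p = 0.00451), the magnesium channel gene Trpm6 (1.64-fold, limma adjusted p = 0.00356) and the calcium-binding protein gene Calb1 (1.45-fold, limma adjusted p = 0.0139). In the proximal tubule list 2 of 10 were higher and 0 lower, the water channel gene Aqp1 (1.22-fold, limma adjusted p = 0.00749) and the organic anion transporter gene Slc22a8 (1.23-fold, limma adjusted p = 0.0429). Of 6 measured podocyte and parietal genes 2 were lower, Ncam1, an adhesion molecule gene (1.49-fold, limma adjusted p = 0.000701), and Podxl, a podocyte surface sialomucin gene (1.22-fold, limma adjusted p = 0.0108). Calb1 and Podxl lost their calls without labelled mutant arrays 1 and 2 together. Slc22a8 lost its call without labelled mutant array 2, 3 or 4 or labelled control array 1, 3 or 4.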

How the data were processed

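Whole-kidney total RNA of 8 mice was isolated with TRIzol and RNeasy and labelled with biotin, per the labels' protocols. The authors' deposited table holds log2 values of 35556 probe sets, from 1.92 to 14.66. Per the submitters' processing notes limma was used, with no version named. Background correction, summarization, normalization and genome build are not given in the sources used here. Gene names came from the platform annotation, updated to RefSeq's GRCm38.p6 gene table. In it 21789 probe sets named 1 gene (21701 matched a current gene), 1621 named several and 12146 stay unnamed. Where several probe sets named a gene alone, the one averaging highest was kept.

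Differences are arrays labelled mutant minus arrays labelled control, from limma 3.58.1 under R 4.3.3 (functions lmFit and eBayes, 1 factor, Benjamini-Hochberg over 19936 genes). On simulated data for these genes 76% of changes of 0.5 and 99% of changes of 1 on the log2 scale were called. The 200 changed genes were drawn at random from all genes. These shares therefore do not hold for markers with a wide spread. Havcr1 and Lcn2, for instance, had within-group SDs of 2.03 and 0.640, against a median of 0.104. The p-values measure the spread between these mice, whose litters the labels do not number.

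The labels number arrays 1 to 4 in both groups. Deviations from group means of same-numbered arrays correlated at 0.138, 0.153, 0.295 and 0.175, each above 0.1. Between arrays of different number the correlations ran from -0.193 to 0.111. Same-numbered arrays were treated as pairs only where the replicate block or the removal of the replicate number is named. The permutation tests did not use the pairing. The pairing comes from the data, not the labels. The fit without the block is the one reported, and the replicate block changed the call of no marker.

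The planned correlation of each marker with Havcr1, with its permutation test, is not given, because its values fell into 2 levels with fewer than 6 arrays in each. The 36 remaining pairs were planned as a description with no test, and their permutation test was added after seeing the data. The markers and gene lists were chosen with earlier results of these data known. All 10 markers are named, with the 2 called genes of largest difference per list (or the largest if none passed) and the 5 genes most like Havcr1. Others that passed are named where a list had 5 or fewer. Timd2, Timd4, Havcr2, Cd68 and the stress genes were picked with their values known. The integrin gene Itgam is the one the rule names for the leukocyte list.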

Additional observations from a re-analysis of the deposited data

Results flagged for a closer look

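Havcr1 on labelled mutant array 3 read 6.25, while the other arrays of that group read 10.13 to 10.92. The gap to its nearest neighbour took up 0.831 of the group's range, far enough for this array to stand apart from the other 3. Among the 20 groups of 4 arrays examined (10 markers in 2 labelled groups) this was the 1 such case, and chance gives about 1 such group in 20. In the labelled control group 2 arrays read 6.56, so a low value is not particular to that array.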

How the results depend on the processing

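Clu and Vim passed under all 17 alternatives, with log2 differences from 0.72 to 0.83 and from -0.46 to -0.37. Krt19 passed under all but one (without labelled mutant arrays 1 and 2 together, -1.05, limma adjusted p = 0.0623). Of the markers that did not pass, Vcam1 passed under 1 alternative (without labelled mutant arrays 3 and 4 together) and the others under none. The number of markers called was 3, against 2 and 4 in those 2 settings. Only Krt20 changed sign, with -0.06 to 0.03 over the single arrays left out (0.03 without labelled mutant array 3, 0.02 without labelled control array 3) and 0.04 without labelled mutant arrays 3 and 4 together. The cause was not tested. The fit with the replicate block called 1657 genes, against 1442 without it, and 3 markers, as without it. Among the other genes named it changed the call of Itgam, Cd68 and Hspb1 (all gained). It also changed that of Pde4c (limma adjusted p = 0.0510 without and 0.0170 with the block) and of Vhl (0.0387 without and 0.0558 with it). With single arrays left out, the genes called numbered 902 to 1368, those higher 263 to 487 and those lower 619 to 908. Without labelled mutant arrays 1 and 2 together 316 were higher, against 517. The 6 correlations among Krt8, Krt18, Krt19 and Sox9 kept their sign under all alternatives. None of the 36 pairs passed in any of the 11 alternative fits that tested them. No reading of signal over background was used here, so how far the low Krt20 and Havcr1 values lie above background is unknown.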

Other observations

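Inside the labelled mutant group, 3 genes picked with their values already known had their highest values on the same 2 arrays as Vcam1. Cxcl10, a chemokine gene induced by interferon, read 9.21 and 8.76 on labelled mutant arrays 1 and 2, 7.79 and 7.6 on labelled mutant arrays 3 and 4, and 7.95 to 8.05 on the arrays labelled control (log2 difference 0.34, limma adjusted p = 0.548). Icam1, another leukocyte adhesion molecule gene, read 9.37, 9.02, 8.74 and 8.78 on the arrays labelled mutant and 8.97 to 9.03 on those labelled control. Ptprc, the common leukocyte antigen gene, read 8.26, 8.27, 7.39 and 7.31 on the arrays labelled mutant and 7.82 to 8.20 on those labelled control. Fgg, picked likewise, a fibrinogen chain gene that injured tubules make, ran the other way, at 6.35, 6.76, 7.66 and 8.15 on the arrays labelled mutant and 6.53, 6.81, 7.66 and 7.23 on those labelled control.

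A ranking under the same limits, added after the values were seen, gave the genes with the within-group pattern most opposite to Havcr1. These were Zfp160 (r = -0.970 over 8 arrays), Tfrc (-0.932), Zfp943 (-0.930), B3gnt3 (-0.905) and Nostrin (-0.893). Zfp160 and Zfp943 both lie on chromosome 17, with 18 protein-coding genes between them. B3gnt3 and Pde4c, which ranked highest in the same direction as Havcr1, both lie on chromosome 8, with 41 between. Zfp943 read 7.76, 7.77, 8.55 and 8.04 on the arrays labelled mutant and 7.90, 8.23, 8.47 and 7.74 on the arrays labelled control, highest within each group on the 3 arrays with low Havcr1.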
